A study of Mus musculus with 12 samples.

Results

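The cytosolic ribosomal protein genes were examined in bone marrow-derived dendritic cells (BMDCs). They were taken by gene name among protein coding genes (Rpl and Rps followed by a number, with the suffixes a, l, x, al or l1, plus Rplp0, Rplp1, Rplp2, Rpsa and Fau), which gave 84 members of 41709 genes. Of these, 52 belong to the large (60S) subunit and 32 to the small (40S) subunit, close paralogs included. The BMDCs came from CD18 fl/fl mice, in which exon 3 of Itgb2, encoding the β2 integrin chain CD18, is flanked by loxP sites, and from CD18 CD11c cKO mice (CD18ΔCD11c in the labels), which are also homozygous for the floxed allele and express Cre under the CD11c promoter. All cultures were grown with GM-CSF for 10 days and then left untreated or stimulated with 100 ng/mL LPS, a ligand of TLR4, for 24 h according to the labels, and MHCII+ cells were sequenced. Each of the 4 groups (fl/fl untreated, fl/fl LPS, cKO untreated, cKO LPS) held 3 libraries, numbered 1 to 3. The labels do not state that these came from separate animals, so p-values measure the spread between libraries.

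A ribosome pairs a small subunit, which reads the mRNA, with a large subunit, which joins amino acids, and each ribosomal protein is needed in about equal amounts. In mammals the mRNAs of nearly all these proteins begin with a stretch of pyrimidines, the terminal oligopyrimidine (TOP) motif, through which mTORC1 and the RNA-binding protein LARP1 adjust their translation and stability as a group. Dendritic cells that sense LPS leave a state of growth and antigen uptake and turn to cytokine production and antigen presentation, so the genes of the translation machinery are of interest beside the inflammatory ones.

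Library depth was even, with 29689149 to 34037178 Total gene reads, of which 95.1% to 96.2% were Unique gene reads. Levels are given as CPM, the reads of a gene scaled to the library's total after TMM scaling over the 12 libraries, and per length as the deposited TPM. Itgb2, the targeted gene, was at 382, 420.1 and 379 CPM in untreated fl/fl and at 120.4, 163 and 189 CPM in untreated cKO BMDCs, with no overlap. Its reads were counted over all exons, not over exon 3 alone. Libraries with replicate number 3 stood apart: the summed level of 10 LPS response genes before stimulation was 324 and 289 CPM there and 1068 to 1423 CPM in the other untreated libraries. Same-numbered libraries deviated together, so that a model with the replicate number as a block was fitted beside the model without it. All 13 listed dendritic cell markers had reads in every group. Their summed level was lowest in replicate 3 of each group. It was 25357, 25442 and 16403 CPM in untreated and 34524, 46608 and 17112 CPM in LPS-treated fl/fl BMDCs. In cKO BMDCs it was 37317.5, 25907 and 21696 CPM untreated and 29839, 28592 and 23751 CPM with LPS.

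The sequences of Rpl41 and of 2 pairs of relatives bear on how members were counted with 59-base reads. Rpl41 (ENSMUSG00000093674, chromosome 10, 128383983 to 128385174, minus strand, GRCm39) encodes the smallest ribosomal protein, and 17 of its 25 codons specify lysine or arginine, set in capitals in its coding sequence from GENCODE:
Rpl41: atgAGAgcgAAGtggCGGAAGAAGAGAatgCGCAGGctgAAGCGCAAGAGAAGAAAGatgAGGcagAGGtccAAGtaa
Rps27 and its paralog Rps27l, a p53 target in mammals, have coding sequences of equal length that differ at 61 of 255 bases, set in capitals:
Rps27: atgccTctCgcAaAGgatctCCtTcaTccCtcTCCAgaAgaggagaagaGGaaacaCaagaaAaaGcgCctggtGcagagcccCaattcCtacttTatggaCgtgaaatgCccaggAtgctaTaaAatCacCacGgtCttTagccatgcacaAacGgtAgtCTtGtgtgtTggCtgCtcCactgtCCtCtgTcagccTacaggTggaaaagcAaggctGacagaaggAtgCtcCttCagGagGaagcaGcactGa
Rps27l: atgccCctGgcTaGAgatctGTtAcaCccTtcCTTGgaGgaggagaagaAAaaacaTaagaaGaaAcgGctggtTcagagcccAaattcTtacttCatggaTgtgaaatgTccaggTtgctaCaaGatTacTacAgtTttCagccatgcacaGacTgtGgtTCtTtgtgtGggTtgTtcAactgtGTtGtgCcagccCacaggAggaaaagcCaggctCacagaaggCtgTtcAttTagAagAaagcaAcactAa
Their longest shared stretch without a mismatch spans 11 bases. Rpl39 and its paralog Rpl39l differ at 23 of 156 bases, and their longest shared stretch spans 38 bases, also shorter than a read:
Rpl39: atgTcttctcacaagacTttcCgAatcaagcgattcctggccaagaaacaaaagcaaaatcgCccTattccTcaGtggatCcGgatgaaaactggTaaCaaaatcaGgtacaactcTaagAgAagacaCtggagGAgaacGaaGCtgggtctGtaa
Rpl39l: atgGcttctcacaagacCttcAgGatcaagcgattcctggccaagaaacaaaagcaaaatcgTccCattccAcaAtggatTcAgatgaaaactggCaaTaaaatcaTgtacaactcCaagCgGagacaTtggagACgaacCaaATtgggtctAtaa
Rps27l, Rpl39 and Rpl39l were counted almost wholly from uniquely placed reads, whereas only 1.76% of Rps27 reads were unique. Over the 83 members with reads, 68 had more than 99% unique reads and 6 had less than 50%, namely Rps27, Rpl10 (6.52%), Rps23 (22.6%), Rps10 (26.2%), Rpl13a (27.2%) and Rpl9 (44.3%), whose levels are therefore uncertain. The genes of 47 members also overlap another annotated gene, and the library kit was not stated to keep strand, so that reads of overlapping genes cannot be told apart.

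Per exon length and averaged over the 12 libraries, Rpl41, Rpl13a and Fau were the most abundant members. The order depends on the annotated exon length. By Total gene reads alone, Rpl41 (2040060), Rpl13a (1954218) and Rps24 (1899152) led, with Fau at 1209788. Rpl41 reached 7854, 6769 and 9179 TPM in untreated and 8168, 7999 and 9236 TPM in LPS-treated fl/fl BMDCs, and 16088, 15367 and 16598 TPM in untreated and 20978, 19487 and 16072 TPM in LPS-treated cKO BMDCs. Its lowest library was an untreated fl/fl one, and its highest values all came from cKO cultures. Rpl41 had the highest mean in each group, but the member behind it differed. In untreated fl/fl BMDCs it was Rplp1, a stalk protein, at 7037 ± 2870.5 TPM (SD, n = 3), beside 5875 ± 204 for Fau and 5598 ± 1089 for Rpl13a. In LPS-treated fl/fl BMDCs it was Fau at 5338 ± 165 TPM, beside 5268 ± 2229 for Rplp1 and 5015 ± 858 for Rpl13a, which differed by less than the SD of Rplp1. In cKO BMDCs it was Rpl13a, and with LPS Rps12 at 7446 ± 2053 TPM and Fau at 7059.8 ± 1185 TPM were within their SDs of each other. Rpl13a, a large subunit protein known also as a translational silencer in myeloid cells, averaged 7472 TPM over the 12 libraries, and Fau, a fusion of a ubiquitin-like protein with Rps30, averaged 6425 TPM. At the other end, Rpl3l and Rpl39l, paralogs best known from muscle and testis, averaged 5.95 and 5.58 TPM. Rpl10l, a testis paralog of Rpl10, had 0 reads in all 12 libraries and was the 1 member not tested.

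As a family, the members took a smaller share of all Total gene reads after LPS and a larger share in cKO BMDCs. The share was 11.3, 10.7 and 15.3% in the untreated fl/fl libraries and 7.80, 7.73 and 11.5% after LPS. In cKO BMDCs it was 18.9, 15.6 and 18.4% untreated and 13.7, 12.4 and 16.3% after LPS. Within every replicate number the LPS library was lower than the untreated one, and the cKO library was higher than the fl/fl one in both states, and the genotypes did not overlap in either state, whereas untreated and LPS-treated libraries overlapped within each genotype. Group means were 12.4 ± 2.51, 9.03 ± 2.18, 17.6 ± 1.77 and 14.1 ± 2.00% (SD, n = 3), in the same order. With Unique gene reads the shares ran from 7.37% to 18.2%. The share is scaled to all reads of a library, without TMM. On that scale the median log2 fold change with LPS was also negative over all genes, at -0.32 in fl/fl and -0.23 in cKO BMDCs. Over the members it was -0.49 and -0.42. For cKO against fl/fl it was -0.44 untreated and -0.37 with LPS over all genes, and 0.41 and 0.45 over the members. In bulk RNA, fewer cells of a type and less RNA per cell cannot be told apart.

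**Figure D1:**
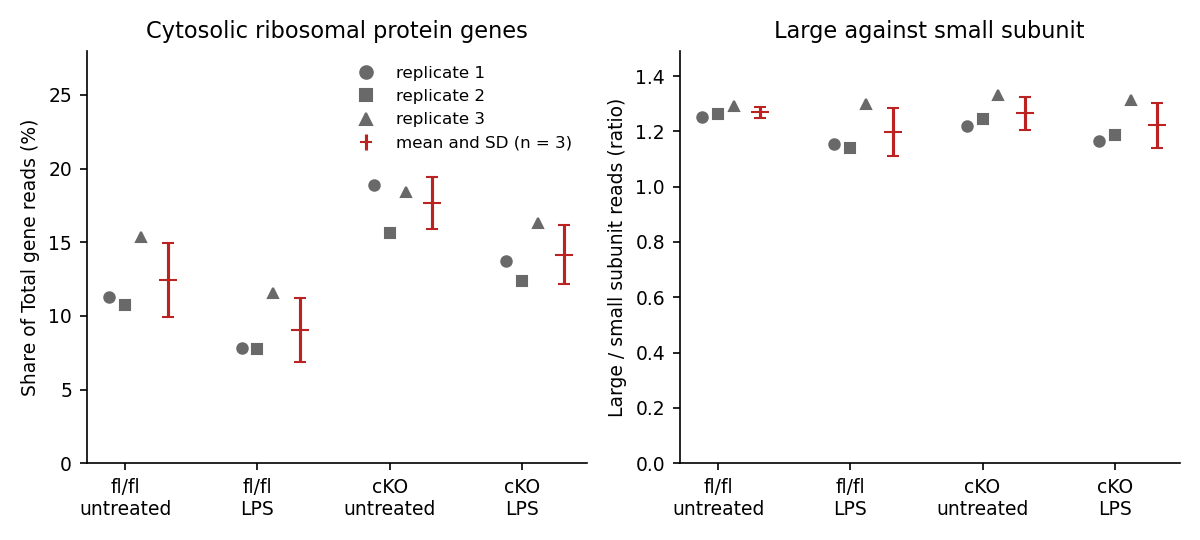
Share of Total gene reads taken by the 84 members (left, percent) and ratio of large to small subunit reads (right) in each library, by group, with symbols for the replicate number and bars for the mean and SD (n = 3). The share lies between 7.73% and 18.9%, and the ratio between 1.14 and 1.33.

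The balance of large to small subunit genes was similar in the 4 groups. The ratio of large to small subunit reads was 1.25, 1.26 and 1.29 in untreated and 1.16, 1.14 and 1.30 in LPS-treated fl/fl BMDCs, and 1.22, 1.24 and 1.33 in untreated and 1.16, 1.19 and 1.31 in LPS-treated cKO BMDCs. It was highest in replicate 3 of each group, and it was lower with LPS in replicates 1 and 2 of both genotypes, while the values of replicate 3 lay close together. The mean log2 CPM of large minus small subunit members, which gives each gene the same weight, was -0.73 ± 0.0144, -0.75 ± 0.0339, -0.71 ± 0.0742 and -0.73 ± 0.0765 (SD, n = 3) in the order of the groups above. These means differed by less than the larger SDs, those of the cKO groups. All were negative, and the large subunit set includes the scarce paralogs Rpl3l and Rpl39l, which lower its mean. After LPS the median log2 fold change was -0.18 over 51 large and -0.22 over 32 small subunit members in fl/fl, and -0.22 and -0.23 in cKO BMDCs.

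The response to LPS was uneven within the family. With the replicate number as a block, Rpl3, Rpl4 and Rps2 fell in both genotypes, Rpl13 fell in fl/fl, and Rps24, Rps27l and Rpl3l rose in cKO BMDCs, whereas without the block no member passed. The median log2 fold change of the 83 tested members was -0.19 in fl/fl and -0.22 in cKO BMDCs, beside -0.015 and -0.014 over all genes tested, and 60 and 60 members were negative. These medians moved with single libraries. In fl/fl the median was -0.32 without untreated replicate 2, -0.062 without untreated replicate 3, -0.097 without LPS replicate 1 and -0.41 without LPS replicate 3, and 44 members were negative without untreated replicate 3. In cKO BMDCs it was -0.38 without LPS replicate 3 and -0.44 without both libraries of replicate 3. By edgeR's quasi-likelihood test without a block, 0 members passed in either direction in fl/fl (of all genes, 2.06% were called higher and 1.83% lower) and 0 in cKO BMDCs (2.23% and 1.76%). At an unadjusted p under 0.05 there were 3 higher and 5 lower members in fl/fl and 3 and 10 in cKO, beside 12.4% and 11.4% of all genes in fl/fl and 10.7% and 10.5% in cKO. DESeq2 called 1 higher and 1 lower in fl/fl (background 6.91% and 5.88%) and 1 and 2 in cKO (background 5.44% and 5.3%). With the replicate block, 0 members rose and 4 fell in fl/fl (background 6.33% higher and 6.43% lower), and 3 rose and 11 fell in cKO BMDCs (background 10.2% and 9.93%). As shares of the 83 members the falling ones made up 4.82% in fl/fl and 13.3% in cKO BMDCs, near the background, so that these counts describe single members and not the family. The groups did not overlap for 17 lower and 3 higher members in fl/fl (background 15.9% and 13.6%) and for 22 and 5 in cKO BMDCs (background 13.4% and 14.8%). 

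The counts depended on replicate 3. Without its libraries, and with no block, 6 members rose and 26 fell in fl/fl (background 23.2% and 24.3%), and 2 and 15 in cKO BMDCs (background 7.93% and 7.99%). Leaving out fl/fl LPS replicate 3 alone gave 2 and 9 (background 12.2% and 12.5%), and leaving out cKO LPS replicate 3 alone gave 1 and 4 (background 4.12% and 3.68%). The median log2 ratio of the members by replicate number was -0.33, -0.094 and -0.25 in fl/fl and -0.40, -0.25 and -0.014 in cKO BMDCs. In fl/fl 46 members were lower and 6 higher in all 3 pairs of a replicate number, which is 55.4% and 7.23% of the members beside 29.2% and 25.5% of all genes tested. In cKO BMDCs these were 41 and 12, or 49.4% and 14.5%, beside 27.4% and 30.1%.

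**Figure D2:**
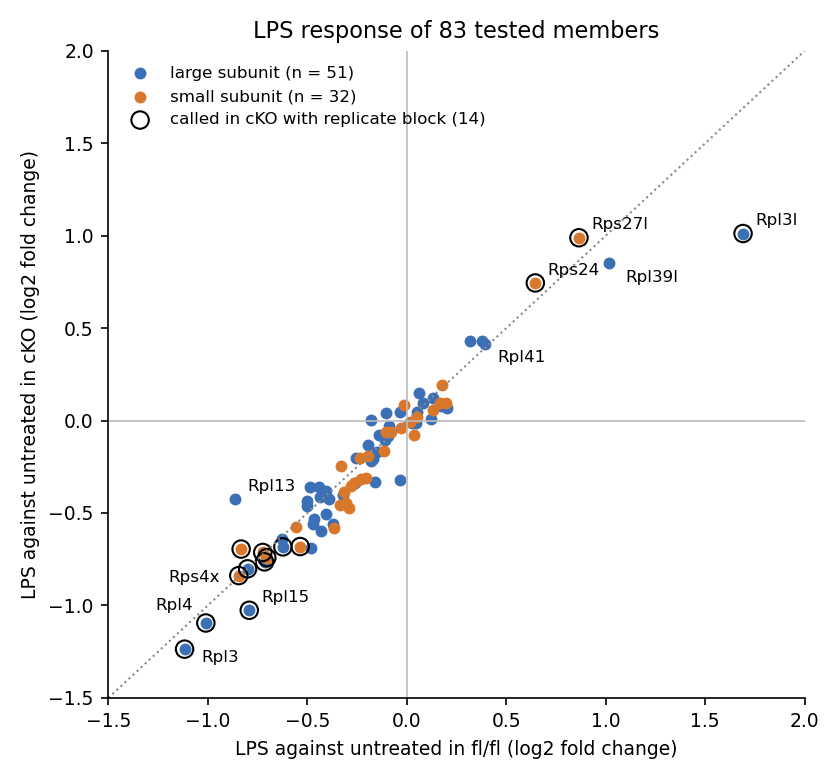
LPS response (log2 fold change without a block) of the 83 tested members in fl/fl (x axis) and cKO BMDCs (y axis), coloured by subunit, with rings around the 14 members called in cKO with the replicate block and a dotted line of equal change. Rpl3 sits lowest, at -1.12 and -1.24, and Rps27l and Rps24 sit above the main cloud.

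Rpl3 (ENSMUSG00000060036, chromosome 15, 79961992 to 79976069, minus strand) and Rpl4 (ENSMUSG00000032399, chromosome 9, 64080657 to 64085948, plus strand) encode large subunit proteins that reach toward the peptidyl transferase centre, and both fell in each genotype with the replicate block. Rpl3 was at 1076, 939 and 1441 CPM in untreated and 476, 478 and 631 CPM in LPS-treated fl/fl BMDCs, and 2125, 1346 and 1736 CPM in untreated and 869, 570.3 and 832 CPM in LPS-treated cKO BMDCs. The groups did not overlap in either genotype, with a log2 fold change of -1.11 (SE 0.20, adjusted p = 0.022) in fl/fl and -1.24 (SE 0.17, adjusted p = 0.0051) in cKO BMDCs, against -1.12 (SE 0.28, adjusted p = 0.077) and -1.24 (SE 0.29, adjusted p = 0.062) without the block. Rpl4 was at 1101, 1013 and 1916 CPM in untreated and 486, 453 and 1049.6 CPM in LPS-treated fl/fl BMDCs, and 1535, 1047 and 1448 CPM in untreated and 611, 409.8 and 905 CPM in LPS-treated cKO BMDCs. Replicate 3 was the highest library in 3 of these 4 groups, the fl/fl groups overlapped, and the blocked log2 fold change was -1.06 (SE 0.20, adjusted p = 0.026) in fl/fl and -1.17 (SE 0.22, adjusted p = 0.012) in cKO BMDCs. As a share of the family's own reads, which does not depend on scaling between libraries, Rpl3 went from 1.15, 1.10 and 1.19% to 0.592, 0.545 and 0.632% in fl/fl and from 1.06, 0.817 and 1.01% to 0.502, 0.343 and 0.478% in cKO BMDCs. Of the other members near that centre, Rpl8 had blocked log2 fold changes of -0.63 and -0.70 (adjusted p = 0.087 and 0.045), and Rpl10 of -0.088 and 0.019 (adjusted p = 0.82 and 0.96).

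Rpl13, Rpl15 and Rps4x completed the lowest fold changes. Rpl15, a large subunit protein mutated in some patients with Diamond-Blackfan anaemia, was at 1083, 1076 and 1189.8 CPM in untreated and 483, 629 and 814 CPM in LPS-treated fl/fl BMDCs, and 2286, 1858 and 1530.4 CPM in untreated and 876, 876 and 1109 CPM in LPS-treated cKO BMDCs. Its groups did not overlap in either genotype, and its blocked log2 fold change was -0.82 (SE 0.22, adjusted p = 0.061) in fl/fl and -1.03 (SE 0.23, adjusted p = 0.024) in cKO BMDCs. Rps4x, an X-linked small subunit protein, was at 904, 890.5 and 969 CPM in untreated and 429, 392 and 709.5 CPM in LPS-treated fl/fl BMDCs, and 1339.8, 1114 and 1266 CPM in untreated and 532, 583 and 1009 CPM in LPS-treated cKO BMDCs. Its groups were also apart, with -0.90 (SE 0.24, adjusted p = 0.059) in fl/fl and -0.91 (SE 0.24, adjusted p = 0.039) in cKO BMDCs. Rpl13 was at 1435, 1369 and 1951 CPM in untreated and 729.7, 572 and 1295 CPM in LPS-treated fl/fl BMDCs, and 2029, 2169.8 and 1672 CPM in untreated and 1297, 1383 and 1813 CPM in LPS-treated cKO BMDCs. It was apart in fl/fl and overlapped in cKO BMDCs, with -0.94 (SE 0.22, adjusted p = 0.046) and -0.44 (SE 0.23, adjusted p = 0.21). Rps2, a small subunit protein at the mRNA entry channel whose gene overlaps Snhg9, fell in both genotypes, with -0.85 (SE 0.20, adjusted p = 0.043) and -0.74 (SE 0.19, adjusted p = 0.036). Rps6, the small subunit protein phosphorylated downstream of mTORC1, had -0.56 (SE 0.19, adjusted p = 0.10) and -0.62 (SE 0.19, adjusted p = 0.062). In cKO BMDCs the block also called Rpl5, Rpl6, Rpl8 and Rpsa lower, among others, with log2 fold changes from -0.85 (Rpl6) to -0.67 (Rpsa). Their values in fl/fl ranged from -0.84 (Rpl6) to -0.53 (Rpsa), with adjusted p from 0.053 to 0.11.

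Rps24 and Rps27l had the opposite sign. Rps24 (ENSMUSG00000025290, chromosome 14, 24537193 to 24547027, plus strand), a small subunit protein needed for the processing of pre-rRNA, was at 2339, 1998 and 2742 CPM in untreated and 3709, 4148 and 3177 CPM in LPS-treated fl/fl BMDCs, and 6188, 5290.4 and 5570.1 CPM in untreated and 10339.7, 11058 and 8200.1 CPM in LPS-treated cKO BMDCs. Every LPS library was above every untreated library of its genotype, with a blocked log2 fold change of 0.65 (SE 0.23, adjusted p = 0.11) in fl/fl and 0.74 (SE 0.17, adjusted p = 0.026) in cKO BMDCs. Rps27l (ENSMUSG00000036781, chromosome 9, 66853368 to 66856798, plus strand) was at 474, 361 and 312 CPM in untreated and 798, 857 and 428 CPM in LPS-treated fl/fl BMDCs, and 972, 904 and 746 CPM in untreated and 1925, 2071 and 1403 CPM in LPS-treated cKO BMDCs. The fl/fl groups overlapped through replicate 3 and the cKO groups did not, with 0.82 (SE 0.24, adjusted p = 0.071) and 0.98 (SE 0.17, adjusted p = 0.0093). Its parent Rps27, mostly from reads with several positions, was at 1100.2, 1049 and 1085 CPM in untreated and 1197, 1298 and 1030.4 CPM in LPS-treated fl/fl BMDCs, and 2104, 2085 and 1149.6 CPM in untreated and 2259, 2274 and 1251 CPM in LPS-treated cKO BMDCs, and these groups overlapped. The blocked log2 fold change of Rps27 was 0.12 (SE 0.20, adjusted p = 0.70) and 0.068 (SE 0.16, adjusted p = 0.81), so that of the pair it was the paralog with the larger value.

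**Figure D3:**
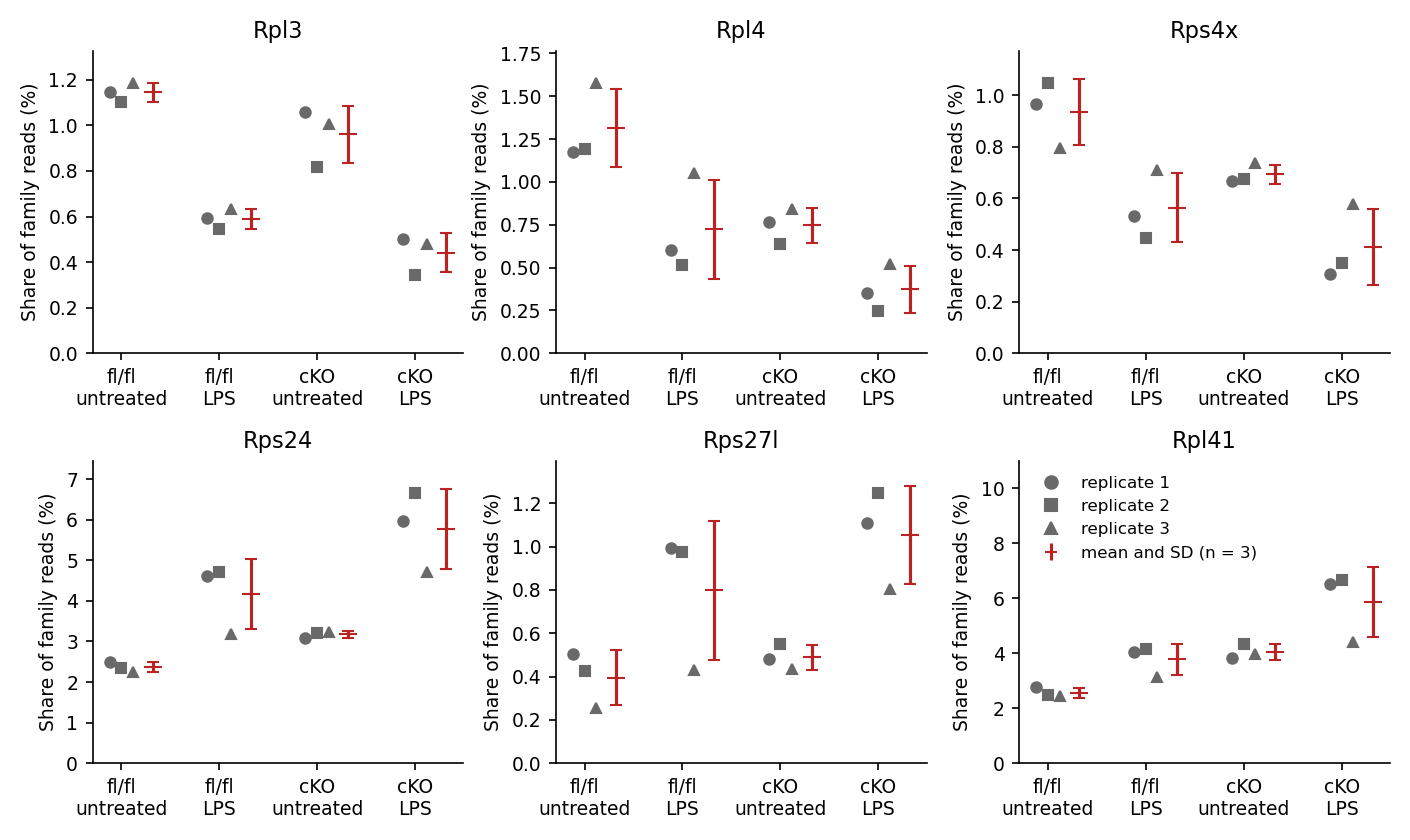
Share of the family's Total gene reads (percent) held by Rpl3, Rpl4, Rps4x, Rps24, Rps27l and Rpl41 in each library, by group, with symbols for the replicate number and bars for the mean and SD (n = 3). Rps24 moves from 2.50, 2.35 and 2.26% to 4.61, 4.73 and 3.18% with LPS in fl/fl and from 3.08, 3.21 and 3.23% to 5.97, 6.66 and 4.71% in cKO BMDCs.

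The short members Rpl41, Rpl35 and Rpl34 followed with smaller values. Rpl41 was at 2587, 2109 and 2967 CPM in untreated and 3251, 3632 and 3136 CPM in LPS-treated fl/fl BMDCs, and 7654, 7167 and 6844 CPM in untreated and 11292, 11075 and 7663 CPM in LPS-treated cKO BMDCs. Its groups did not overlap, yet the blocked log2 fold change did not pass in either genotype, at 0.40 (SE 0.22, adjusted p = 0.25) and 0.40 (SE 0.17, adjusted p = 0.14). Rpl35, at the exit of the peptide tunnel, was at 1117, 907 and 1459 CPM in untreated and 1405, 1465 and 1628 CPM in LPS-treated fl/fl BMDCs, and 3424, 2666 and 3777 CPM in untreated and 4219, 4241 and 5219 CPM in LPS-treated cKO BMDCs, with 0.40 (SE 0.21, adjusted p = 0.24) and 0.43 (SE 0.17, adjusted p = 0.12). Its groups overlapped in fl/fl and not in cKO BMDCs, as did those of Rpl34. Rpl34 was at 1451, 1184 and 1377 CPM in untreated and 1781, 1839 and 1357 CPM in LPS-treated fl/fl BMDCs, and 3659, 3340.0 and 3074 CPM in untreated and 4700.0, 5409 and 3955 CPM in LPS-treated cKO BMDCs, with 0.31 (SE 0.22, adjusted p = 0.36) and 0.43 (SE 0.17, adjusted p = 0.12).

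Averaged per length over the 12 libraries, the paralogs lay below their parents, but not in every library. The averages were 2538 TPM for Rps27l against 4079 TPM for Rps27, 504 against 681 TPM for Rpl22l1 and Rpl22, 459.8 against 1615 TPM for Rpl36al and Rpl36a, and 101 against 1541 TPM for Rpl7l1 and Rpl7. Rps27l exceeded Rps27 in 1 library, cKO LPS replicate 3, at 3632 against 3098 TPM. Rpl22l1 exceeded Rpl22 in 2, replicate 1 of both LPS groups, at 405 against 358 TPM in fl/fl and 633 against 554 TPM in cKO BMDCs. Their exon lengths are 628 and 2065 bases, and in CPM Rpl22l1 lay below Rpl22 in every library. Rpl36al and Rpl7l1 exceeded their parents in 0 of 12. Rpl3l had 56, 43 and 24 reads in untreated and 112, 115 and 106 in LPS-treated fl/fl BMDCs, and 293, 161 and 209 and 473, 371 and 305 in cKO BMDCs. Its blocked log2 fold change with LPS was 1.75 (SE 0.47, adjusted p = 0.059) in fl/fl and 1.02 (SE 0.26, adjusted p = 0.034) in cKO BMDCs, opposite in sign to that of Rpl3. In CPM its fl/fl groups did not overlap, while its cKO groups did, with 10.4 CPM in untreated replicate 1 and 9.87 CPM in LPS replicate 3. Rpl39l had 43, 68 and 44 and 115, 79 and 63 reads in fl/fl and 12, 146 and 83 and 52, 155 and 166 reads in cKO BMDCs, and its values overlapped in both genotypes. Rpl39 itself was at 766, 685 and 1244 CPM and 695, 857 and 1361 CPM in fl/fl and at 1450.3, 1207 and 1677 CPM and 1199.7, 1283 and 1974 CPM in cKO BMDCs. Rpl22l1, which stands in for Rpl22 in some tissues, was at 105, 77.9 and 131 CPM in untreated and 143, 138 and 79.3 CPM in LPS-treated fl/fl BMDCs, and 265, 179.6 and 357 CPM in untreated and 299.6, 320.3 and 252 CPM in LPS-treated cKO BMDCs. Rpl22, a parent known for roles in lymphocyte development, was at 515, 522 and 763 CPM in untreated and 410.1, 466 and 688 CPM in LPS-treated fl/fl BMDCs, and 1129, 1102 and 1205 CPM in untreated and 858, 1090.3 and 1274 CPM in LPS-treated cKO BMDCs. Neither passed for LPS, with blocked log2 fold changes of 0.19 and 0.12 for Rpl22l1 and -0.21 and -0.16 for Rpl22. Rpl36al was at 282, 247 and 350.1 CPM in untreated and 229.8, 272 and 232 CPM in LPS-treated fl/fl BMDCs, and 565, 485 and 432 CPM in untreated and 511, 446 and 377 CPM in LPS-treated cKO BMDCs, and Rpl36a at 359.8, 347 and 548 CPM in untreated and 261, 269 and 413 CPM in LPS-treated fl/fl BMDCs, and 692, 530.2 and 609 CPM in untreated and 482, 398 and 562 CPM in LPS-treated cKO BMDCs. Rpl7l1 was at 152, 122 and 116 CPM in untreated and 161, 178 and 98.5 CPM in LPS-treated fl/fl BMDCs, and 264, 241 and 204 CPM in untreated and 260.2, 315 and 204 CPM in LPS-treated cKO BMDCs, and Rpl7 at 1222, 1034 and 1257 CPM in untreated and 917, 863 and 811 CPM in LPS-treated fl/fl BMDCs, and 1861, 1214 and 1143 CPM in untreated and 1179, 740.1 and 955 CPM in LPS-treated cKO BMDCs. The groups of these last 4 genes overlapped in at least 1 genotype, and none passed for LPS.

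The stalk proteins, which recruit elongation factors, and the ubiquitin fusions were not called with LPS. Rplp0, the base of the stalk, was at 3774, 3192 and 3652 CPM in untreated and 3719, 3706 and 2904 CPM in LPS-treated fl/fl BMDCs, and 7223, 4755 and 4046 CPM in untreated and 5265, 3963 and 4006 CPM in LPS-treated cKO BMDCs. Rplp1 was at 1284, 1128 and 2331 CPM in untreated and 1166, 1198 and 1853 CPM in LPS-treated fl/fl BMDCs, and 1973, 1593 and 2058 CPM in untreated and 1594, 1178 and 1817 CPM in LPS-treated cKO BMDCs, and Rplp2 at 677, 706 and 912 CPM in untreated and 491, 562 and 853 CPM in LPS-treated fl/fl BMDCs, and 964, 948 and 931 CPM in untreated and 673, 697 and 942 CPM in LPS-treated cKO BMDCs. These groups overlapped, and the blocked log2 fold changes of the 3 genes lay between -0.29 and -0.040 in fl/fl and between -0.36 and -0.29 in cKO BMDCs, with 0 called. Rps27a, a ubiquitin fusion and thus a source of free ubiquitin, was at 1375, 1132 and 1719 CPM in untreated and 1075, 1315 and 1489.6 CPM in LPS-treated fl/fl BMDCs, and 3412, 2962 and 3073 CPM in untreated and 2561, 3112 and 3005 CPM in LPS-treated cKO BMDCs. Fau was at 2331, 2106 and 2339.5 CPM in untreated and 2532, 2815 and 2238 CPM in LPS-treated fl/fl BMDCs, and 4793, 4256 and 3069 CPM in untreated and 5427, 4321 and 3647 CPM in LPS-treated cKO BMDCs. Their blocked log2 fold changes were -0.11 and -0.17 for Rps27a and 0.16 and 0.10 for Fau, and none passed. Rpl5 and Rpl11, which with 5S rRNA can bind Mdm2, were both negative. Rpl5 was at 1565, 1362 and 2524 CPM in untreated and 782, 929.6 and 1589.7 CPM in LPS-treated fl/fl BMDCs, and 3919.7, 3246 and 3581 CPM in untreated and 2033, 2059 and 2418 CPM in LPS-treated cKO BMDCs, with -0.73 (SE 0.21, adjusted p = 0.066) and -0.77 (SE 0.18, adjusted p = 0.026). Rpl11 was at 1142, 1075 and 1387 CPM in untreated and 779, 802 and 1008 CPM in LPS-treated fl/fl BMDCs, and 2468, 1977 and 1807 CPM in untreated and 1605, 1295 and 1468 CPM in LPS-treated cKO BMDCs, with -0.47 (SE 0.19, adjusted p = 0.15) and -0.56 (SE 0.18, adjusted p = 0.071). Among 9 members at the tunnel exit 0 were called in either genotype, and among 7 at the decoding site and mRNA channel 1 (Rps2) was called lower in each. Of 12 members tied to Diamond-Blackfan anaemia, 0 were called in fl/fl, and 1 was called higher and 3 lower in cKO BMDCs. Of 5 members that are very small or exchange readily, 0 were called. With the block, 6.33% of all genes were called higher and 6.43% lower in fl/fl, and 10.2% and 9.93% in cKO BMDCs. The interaction of genotype and LPS called 0 members, so these small counts do not establish a contrast of genotypes.

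Grouped by protein length, longer members had lower median LPS fold changes. In fl/fl BMDCs the median log2 fold change was -0.046 over the 28 members of 25 to 130 amino acids, -0.23 over 27 members of 132 to 184 and -0.46 over 28 members of 188 to 419. In cKO BMDCs the same medians were -0.037, -0.25 and -0.45. Of the 28 longest members, 6 were positive in fl/fl and 5 in cKO BMDCs. Across the 83 members, Spearman's rho between coding length and log2 fold change was -0.44 in fl/fl and -0.44 in cKO BMDCs, beside -0.14 and -0.048 over all protein coding genes tested. With exon length in place of coding length, rho over the members was -0.049 and -0.046, so the relation was seen with coding length only. With an exon length offset and the replicate block, rho with coding length over the members was -0.37 and -0.40, and with a coding length offset and the block -0.34 and -0.35. With the exon length offset 0 members rose and 5 fell in fl/fl (background 7.2% and 6.45%) and 3 members rose and 8 fell in cKO BMDCs (background 11.8% and 8.98%). With the coding length offset 1 member rose and 10 fell in fl/fl (background 8.34% and 7.29%) and 3 members rose and 10 fell in cKO BMDCs (background 12.4% and 9.8%). The correlations are descriptions across genes of the same libraries, which are not independent replicates.

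**Figure D4:**
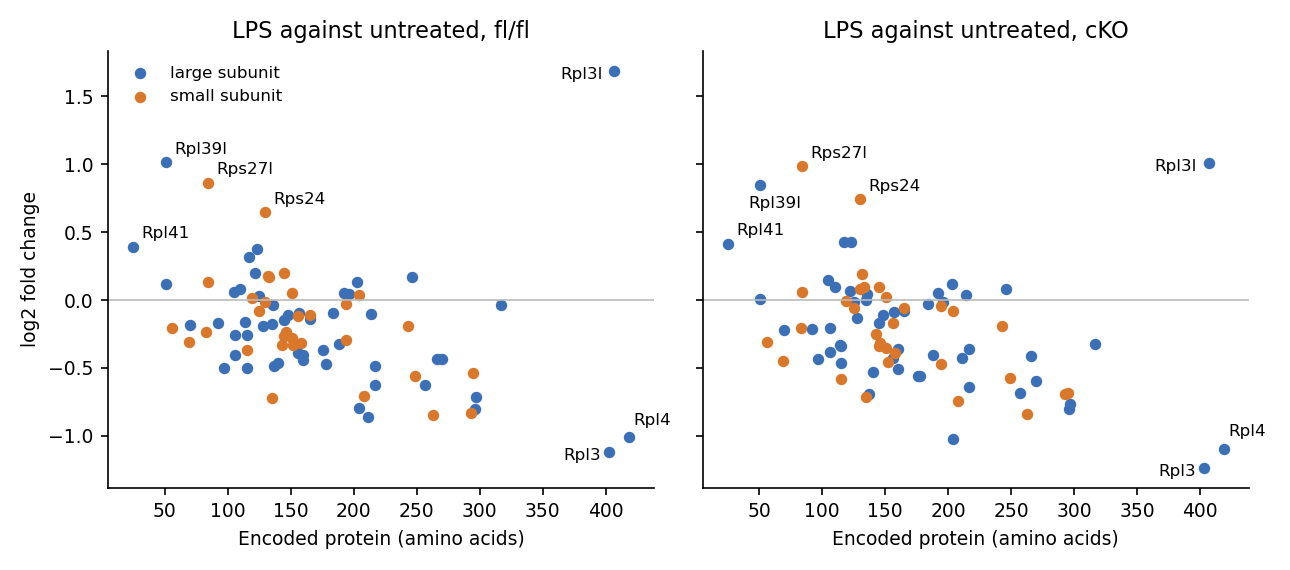
LPS response (log2 fold change without a block) of the 83 tested members against the length of the encoded protein in amino acids, in fl/fl (left) and cKO BMDCs (right), coloured by subunit. Values decline with length, from Rpl41 at 0.39 and 0.42 to Rpl3 and Rpl4 at the lower right, and Rpl3l lies outside this pattern.

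The start regions of the members most changed by LPS were inspected for pyrimidine runs, since the TOP motif is the feature these mRNAs are known to share. In RefSeq (GRCm38.p6), 64 members were matched, and 84.4% of them had a run of 8 or more C or T on the sense strand within 50 bases before or after an annotated start, against 39.3% of all 27025 genes. On the opposite strand the shares were 25% and 36.8%. The windows of 30 bases around the longest run, set in capitals, are shown for matched members at either end of the LPS response. Rpl3, the lowest, was not among those matched. Rpl4 (chr9:64173406-64173435, plus strand), Rpl13 (chr8:123102324-123102353, plus strand), Rpl15 (chr14:18270967-18270996, minus strand) and Rps4x (chrX:102189342-102189371, minus strand) had low fold changes, and Rps24 (chr14:24490711-24490740, plus strand), Rps27l (chr9:66946054-66946083, plus strand), Rpl39l (chr16:10170192-10170221, plus strand) and Rpl3l (chr17:24727846-24727875, plus strand) high ones:
Rpl4: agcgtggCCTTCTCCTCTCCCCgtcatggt
Rpl13: cgtgacgtcaCTTCCCTTTCgcctgatttt
Rpl15: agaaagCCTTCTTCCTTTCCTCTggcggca
Rps4x: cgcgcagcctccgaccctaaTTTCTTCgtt
Rps24: agcggTCCTCTTTTCCTCCTCTCCagctcc
Rps27l: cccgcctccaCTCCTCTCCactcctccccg
Rpl39l: acacccactgCCTCTCCCTagctcccaggc
Rpl3l: tggtggggaggCCCCTTCCTaacctgcagg
The longest run in Rps4x spanned 7 bases, and the others had 9 to 19, whichever sign the fold change had. Counted from the annotated start, the runs began at 27 in Rpl4, -16 in Rpl13, -4 in Rpl15 and 41 in Rps4x. Those of Rps24, Rps27l, Rpl39l and Rpl3l began at -37, -22, -26 and 32. Only the run of Rpl15 spanned the start, so the others cannot be taken as TOP motifs of these starts. Where a gene had several starts, the longest run was taken. The median LPS log2 fold change was -0.16 in fl/fl and -0.15 in cKO BMDCs over 54 tested members with a run, and -0.28 and -0.35 over 9 without one.

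The LPS responses of both genotypes were alike gene by gene. Across the 83 members the log2 fold changes in fl/fl and cKO BMDCs, which share no library, had a Pearson's r of 0.95, beside 0.89 over 11377 genes tested in all comparisons. The members are mostly abundant, and the wider set was not matched to them for read number. The interaction of genotype and LPS was tested on the 12 libraries. By edgeR, 0 of 83 members passed, with the lowest adjusted p at 1, and 0 had an unadjusted p under 0.05. Of all 13752 genes 0% were called higher and 0% lower, and DESeq2 and the replicate block also called 0 members. The median interaction of the members was 0.018, and single members ranged from -0.62 (Rpl3l) to 0.49 (Rpl13). For Rps24 the interaction was 0.16 (SE 0.32) and for Rpl3 -0.072 (SE 0.38), on the log2 scale.

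Between the genotypes, most of the family was higher in cKO BMDCs with the replicate block, and by less with a length offset. The median log2 fold change of cKO against fl/fl was 0.81 untreated and 0.70 with LPS, beside -0.048 and -0.11 over all genes tested, and 83 and 82 of 83 members were positive. Without a block, edgeR called 0 members and 0 of all genes (background 0% untreated and 0% with LPS), although 62 and 40 members were higher at an unadjusted p under 0.05 (10.8% and 6.19% of all genes) and DESeq2 called 31 and 21 higher and 0 lower (background 5.5% and 0.527% untreated, 1.22% and 0.078% with LPS). With the replicate block, 63 members were higher and 0 lower untreated (background 12.1% and 8.16%), and 57 and 0 with LPS (background 6.98% and 3.16%). Without the libraries of replicate 3 and with no block, 61 members were called higher untreated and 31 with LPS and 0 lower in either state (background 7.91% and 2.67% untreated, 3.24% and 0.977% with LPS). The groups did not overlap for 61 members untreated and 51 with LPS, all higher in cKO BMDCs (background 11.7% higher and 13.1% lower untreated, 9.51% and 8.09% with LPS). By replicate number, the median log2 ratio of the members was 0.98, 0.84 and 0.37 untreated and 0.87, 0.71 and 0.61 with LPS.

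The size of this difference moved with an offset on exon or coding length. Exon length covers a gene's annotated exons and is not the length of a single mRNA (6000 bases for Rps15a, with 390 coding bases). Over all protein coding genes tested, short genes were higher in cKO libraries, with a Spearman's rho of -0.44 untreated and -0.36 with LPS between coding length and log2 fold change, whereas over the members it was -0.054 and -0.076. With an offset that removes the trend on exon length, and the block, the members' median was 0.28 untreated and 0.33 with LPS, with 54 and 60 members positive, 19 higher and 0 lower untreated (background 7.04% and 4.04%), and 28 higher and 1 lower (Rplp1) with LPS (background 4.88% and 1.93%). This offset is set over all genes, where rho with exon length became -0.027 and -0.021. Among the members rho with exon length went the other way, from 0.20 with the block alone to 0.69 untreated and from 0.14 to 0.59 with LPS, so that short members were lowered more than long ones. With an offset on coding length and the block, an alternative chosen after seeing the data, the median of the members was 0.42 and 0.45, with 67 and 69 positive and 28 and 29 called higher and 0 lower (background 6.98% and 4.85% untreated, 4.57% and 2.37% with LPS). The summed level of 10 cell cycle genes also differed, at 465, 375 and 240.0 CPM in untreated fl/fl and 792, 884 and 1079 CPM in untreated cKO BMDCs, with no overlap. With LPS it was 303, 401 and 249 CPM in fl/fl and 525, 757 and 523 CPM in cKO BMDCs, again with no overlap. Untreated and LPS libraries were apart in cKO BMDCs and overlapped in fl/fl. The part of exon or coding length and of cycling cells in the results was not tested.

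**Figure D5:**
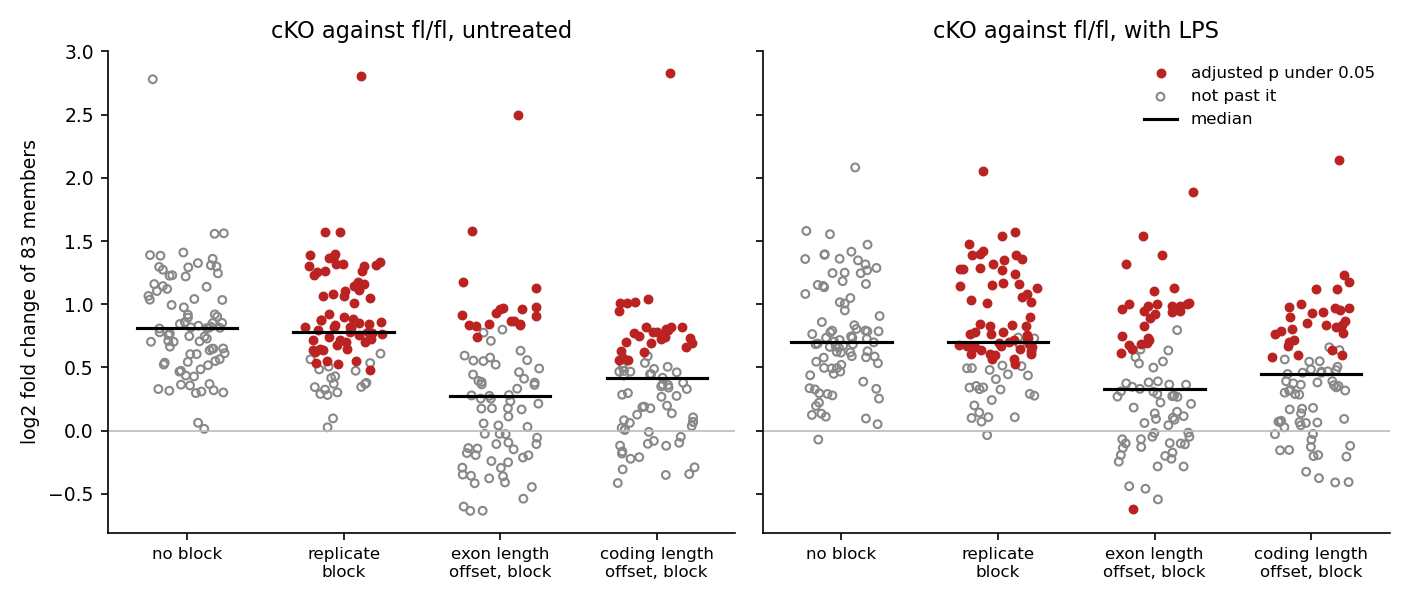
log2 fold change of cKO against fl/fl BMDCs for the 83 tested members, untreated (left) and with LPS (right), under 4 fits, with filled points for an adjusted p under 0.05, open points for the others and a line at the median. Without and with the block all members but Rpl4 with LPS lie above 0, and the values move down with either length offset, to medians between 0.28 and 0.45.

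Among named members Rpl35, Rpl41, Rpl34 and the paralogs Rpl3l and Rpl22l1 had the highest genotype values, and Rps2, Rpl4, Rps26, Rpl37 and Rplp1 the lowest. In the values by library given above, every cKO library of Rpl35, Rpl41, Rpl34 and Rps24 exceeded every fl/fl library of the same state. The blocked log2 fold change was 1.57 (SE 0.15, adjusted p = 0.0030) untreated and 1.57 (SE 0.13, adjusted p = 0.0064) with LPS for Rpl35. For Rpl41 it was 1.57 (SE 0.18, adjusted p = 0.0032) and 1.54 (SE 0.15, adjusted p = 0.0064), and with the exon length offset 0.78 (adjusted p = 0.055) and 0.94 (adjusted p = 0.015). Rps24, whose exons sum to 1946 bases against 718 for Rpl41, had a larger value under that offset, which lowers short members more, at 1.13 (adjusted p = 0.014) and 1.32 (adjusted p = 0.0100). Rpl3l reached 2.81 (SE 0.35, adjusted p = 0.0036) and 2.06 (SE 0.23, adjusted p = 0.0064). In contrast, Rps2 had 0.027 (SE 0.15, adjusted p = 0.92) and 0.11 (SE 0.14, adjusted p = 0.66), and Rpl4 0.098 (SE 0.18, adjusted p = 0.74) and -0.035 (SE 0.15, adjusted p = 0.91). Rps26, a small subunit protein at the mRNA exit channel, was at 694, 772 and 708 CPM in untreated and 444, 542 and 694 CPM in LPS-treated fl/fl BMDCs, and 968, 956 and 656 CPM in untreated and 531, 602 and 641 CPM in LPS-treated cKO BMDCs, with 0.28 (SE 0.16, adjusted p = 0.23) and 0.072 (SE 0.14, adjusted p = 0.78). Rpl37 was at 579, 587 and 722 CPM in untreated and 359, 339 and 629 CPM in LPS-treated fl/fl BMDCs, and 749, 724 and 756 CPM in untreated and 562, 425 and 707 CPM in LPS-treated cKO BMDCs, with 0.30 (SE 0.14, adjusted p = 0.16) and 0.35 (SE 0.14, adjusted p = 0.16). The direction of Rps2, Rpl4 and Rps26 in both states, Rpl37 untreated and Rplp1 with LPS turned under other scalings or length offsets, so that no direction is given for them. Rpl5 and Rpl11 were higher with the block, by 1.08 and 0.85 untreated and 1.02 and 0.73 with LPS. Across the members the genotype differences untreated and with LPS, which share no library, had a Pearson's r of 0.95, beside 0.69 over the genes tested in all comparisons. That wider set was likewise not matched to the members for read number.

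Rps3a1 and Rack1, ribosomal proteins that the name rule does not take, had blocked LPS log2 fold changes of -0.81 and -0.86 in fl/fl and -0.76 and -1.02 in cKO BMDCs. Rack1, a scaffold on the small subunit, passed in both (adjusted p = 0.043 and 0.012). Other genes of the translation machinery are given with the block. Of 26 further genes listed as having TOP mRNAs, 0 higher and 4 lower were called in fl/fl and 0 higher and 10 lower in cKO BMDCs, with medians of -0.45 and -0.38. Eef2, the translocase of elongation, fell by 1.61 (SE 0.25, adjusted p = 0.015) and 1.20 (SE 0.17, adjusted p = 0.0055) on the log2 scale. Of 8 elongation genes, which share 5 names with that list, 0 higher and 2 lower were called in fl/fl and 0 higher and 5 lower in cKO BMDCs. The largest list, 95 genes of rRNA processing and ribosome assembly, had medians of -0.60 and -0.55, with 1 higher and 24 lower called in fl/fl and 2 higher and 31 lower in cKO BMDCs. Its lower genes included the rRNA methyltransferase Ftsj3 in fl/fl, at -1.79 (SE 0.28, adjusted p = 0.015), and the box C/D snoRNP protein Nop58 in cKO BMDCs, at -2.0 (SE 0.24, adjusted p = 0.0031), while Sbds, which helps release a factor from the new large subunit, was called higher in both.

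Of 18 tested RNA polymerase I genes, 0 were called after LPS in fl/fl, and 2 higher and 1 lower were called in cKO BMDCs. Of 19 genes of TOP control and mTORC1, 0 were called in fl/fl and 2 higher and 2 lower in cKO BMDCs, among them Mtor at 0.85 (SE 0.19, adjusted p = 0.023) and Myc, a driver of ribosome production, at -3.70 (SE 0.96, adjusted p = 0.037). Of 4 listed genes of the p53 pathway, on which the 5S particle acts, 0 were called in fl/fl and 2 higher and 1 lower in cKO BMDCs. There Mdm2 was at 1.17 (SE 0.24, adjusted p = 0.017), and Trp53, which encodes p53 itself, was the lower one. The 78 mitochondrial ribosomal protein genes, which serve the ribosome of the mitochondrion, had LPS medians of 0.19 and 0.083, above those of the cytosolic members, with 2 higher and 1 lower called in fl/fl and 8 higher and 4 lower in cKO BMDCs. Between genotypes they had medians of 0.67 untreated and 0.55 with LPS, with 50 higher and 0 lower called untreated and 33 higher and 0 lower with LPS. Mrpl53 was among them, at 1.43 (SE 0.14, adjusted p = 0.0030) and 1.33 (SE 0.15, adjusted p = 0.0064). In the same genotype comparisons the further TOP mRNA genes had 9 higher and 1 lower untreated and 8 higher and 0 lower with LPS, and the elongation genes had 4 higher and 0 lower untreated and 4 higher and 0 lower with LPS. The RNA polymerase I genes had 8 higher and 1 lower untreated and 5 higher and 0 lower with LPS, and those of rRNA processing and assembly had 12 higher and 6 lower untreated and 9 higher and 0 lower with LPS. The genes of TOP control and mTORC1 had 1 higher and 2 lower untreated and 1 higher and 1 lower with LPS, and 0 of the p53 list were called in either state. The shares of all genes called with the block are the backgrounds given above for each comparison.

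Listed markers of other cell types were present, and their levels moved with LPS or with the replicate number. The summed level of 11 neutrophil genes was 156 to 1707 CPM in untreated and 79.7 to 98.1 CPM in LPS-treated fl/fl libraries, and 108 to 442 and 61.0 to 112 CPM in cKO libraries, where Cxcr2, Elane, Mpo and Retnlg had 0 reads after LPS. That of 10 macrophage and monocyte genes was 1781 to 2217 and 1587 to 2072 CPM in fl/fl and 1971 to 2317 and 1290.4 to 1331 CPM in cKO libraries. The 6 mast cell and basophil genes summed to 15.5 to 84.6, 8.29 to 38.3, 15.1 to 165 and 10.2 to 114 CPM in the 4 groups, highest in replicate 3. The 10 lymphocyte genes summed to at most 147 CPM and the 5 erythroid genes to at most 23.6 CPM in any library, with Gzma at 0 reads in every group and Klrb1c at 0 after LPS. The part of these cells in the results was not tested.

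Counting only uniquely placed reads changed little. Between Total and Unique gene reads, the log2 fold change of a member differed by at most 0.189 in any comparison (Rps27, cKO against fl/fl with LPS), and no member differed by more than 0.5. Reads in introns of the members, a sign of unspliced transcripts, amounted to 0.832 to 1.39 per 1000 exon reads, against 19.5 to 47.5 over all genes. Scaled to the gene reads of each library, as CPM, they were 157, 128 and 183 in untreated and 96.7, 74.3 and 150.4 in LPS-treated fl/fl BMDCs, and 175, 176 and 167 and 139, 123 and 136 in cKO BMDCs. Within each replicate number the LPS library was the lower one.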

How the data were processed

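MHCII+ BMDCs were isolated with magnetic beads, poly(A) RNA was made into libraries without molecular identifiers and single 59-base reads were sequenced. Per the study's methods, the authors trimmed the reads, mapped them to GRCm39 in CLC Genomics Workbench and counted them per gene. The labels name GRCm38, but the gene coordinates in the files are those of GRCm39. The deposited files hold whole-number counts per gene (Total gene reads, Unique gene reads, exon, exon-exon and intron reads), and TPM values that the authors' software scaled by exon length. Total gene reads include reads with several positions, and how the software shared these between copies is not given in the sources used here. The members and gene lists were chosen with earlier results of these data known.

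Groups came from the labels. Members were tested with edgeR 4.0.16 (quasi-likelihood, TMM, filterByExpr with a minimum count of 10, no block, R 4.3.3) on Total gene reads of all genes in each comparison of 6 libraries, and in all 12 libraries for the interaction, with p-values adjusted by Benjamini-Hochberg across every tested gene, and a threshold of 0.05. SEs were derived from the log2 fold change and the F statistic. Same-numbered libraries deviated together from their group means (correlation 0.28 to 0.79 over the 4 comparisons), so the fit with a replicate block is given beside results. Replicates 1 and 2 also deviated together across numbers (0.21 to 0.45), and replicate 3 deviated against both (-0.72 to -0.34). The pattern is mainly replicate 3 against the others and does not establish matched pairs. Alternatives were DESeq2 1.42.0, RLE factors, library size scaling, no filter, Unique gene reads, offsets for exon or coding length by lowess (span 0.3), and left-out libraries. Members with values by library were the 4 highest and 4 lowest of each comparison, the most abundant per length, paralogs and their parents, stalk, ubiquitin fusion and 5S genes, and named calls. Both tools were tested on simulated data. Values of some single genes are not reported here. Depth was 29689149 to 34037178 reads per library, and counts of reads without molecular identifiers give counting error only. Coding sequences came from GENCODE vM39 and start regions from RefSeq.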

Additional observations from a re-analysis of the deposited data

How the results depend on the processing

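Relative to all genes, the members' medians kept their direction in every setting tried for the 4 pairwise comparisons. Scaling to library size in place of TMM moved the median of all genes to -0.32, -0.23, -0.44 and -0.37 for LPS in fl/fl, LPS in cKO, genotype untreated and genotype with LPS, and the members' median minus that of all genes was then -0.17, -0.19, 0.85 and 0.81, against -0.18, -0.20, 0.86 and 0.81 with TMM. The median itself was -0.49 for LPS in fl/fl, 0.41 for genotype untreated and 0.45 with LPS under that scaling. With the block added, library size scaling gave -0.54, -0.49, 0.39 and 0.45. The genotype medians were 0.28 and 0.33 with the exon length offset and block, and 0.42 and 0.45 with the coding length offset and block.

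Counts of members called depended on the setting, and the cause was not tested. With the replicate block they were 0 higher and 4 lower for LPS in fl/fl, 3 higher and 11 lower for LPS in cKO, 63 higher and 0 lower for genotype untreated and 57 higher and 0 lower with LPS. In the same order they were 0 higher and 5 lower, 3 higher and 8 lower, 19 higher and 0 lower and 28 higher and 1 lower with the exon length offset and block, 1 higher and 10 lower, 3 higher and 10 lower, 28 higher and 0 lower and 29 higher and 0 lower with the coding length offset and block, 0 higher and 22 lower, 1 higher and 24 lower, 32 higher and 0 lower and 39 higher and 0 lower with library size scaling and block, 1 higher and 1 lower, 1 higher and 2 lower, 31 higher and 0 lower and 21 higher and 0 lower with DESeq2, and 1 higher and 1 lower, 0 higher and 2 lower, 4 higher and 0 lower and 10 higher and 0 lower with 1 fit of all 12 libraries. The coding length offset and library size scaling with the block were chosen after seeing the data. RLE size factors, no filter on low counts, Unique gene reads and library size scaling without the block called 0 members in each comparison. Leaving out 1 library or all of replicate 3 gave 0 to 6 higher and 0 to 26 lower for LPS in fl/fl, 0 to 2 higher and 0 to 15 lower for LPS in cKO, 0 to 61 higher for genotype untreated and 0 to 31 with LPS. The upper ends came without replicate 3, and of single libraries fl/fl LPS replicate 3 and cKO LPS replicate 3 changed a count. The interaction called 0 members in every setting, and its median ran from -0.24 (without fl/fl untreated replicate 3) to 0.099 when libraries were left out. With Unique gene reads the mean log2 CPM of large minus small subunit members was -0.58, -0.61, -0.57, -0.59 in the 4 groups.

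The members with the lowest genotype values changed sign. Untreated, Rpl37 was at -0.095 (library size scaling), -0.41 (exon length offset and block), -0.35 (coding length offset and block), -0.089 (library size scaling and block). Rpl4 was at -0.33 (library size scaling), -0.25 (exon length offset and block), -0.29 (library size scaling and block), Rps2 at -0.38 (library size scaling), -0.42 (exon length offset and block), -0.12 (coding length offset and block), -0.37 (library size scaling and block), -0.046 (all 12 libraries), and Rps26 at -0.10 (library size scaling), -0.54 (exon length offset and block), -0.31 (coding length offset and block), -0.11 (library size scaling and block). With LPS, Rpl4 was at 0.061 (coding length offset and block), Rplp1 at -0.17 (library size scaling), -0.62 (exon length offset and block), -0.38 (coding length offset and block), -0.15 (library size scaling and block), Rps2 at -0.15 (library size scaling), -0.19 (exon length offset and block), -0.14 (library size scaling and block), and Rps26 at -0.22 (library size scaling), -0.54 (exon length offset and block), -0.41 (coding length offset and block), -0.18 (library size scaling and block). With libraries left out, untreated values ran from -0.10 to 0.38 for Rpl4 and -0.10 to 0.21 for Rps2, and values with LPS from -0.43 to 0.42 for Rpl4, -0.073 to 0.34 for Rplp1, -0.12 to 0.36 for Rps2 and -0.070 to 0.22 for Rps26. These values, and the next counts, cover only the 4 highest and 4 lowest members of each comparison and those called with the block for LPS. Of their other values, 482 kept their direction and side of the threshold and 155 kept their direction and passed it. Over all 83 members, the negative ones between genotypes numbered 0 untreated and 1 with LPS, 29 and 23 with the exon length offset and block, 16 and 14 with the coding length offset and block, and 11 and 9 with library size scaling. The even depth of the libraries does not limit the abundant members, whereas Rpl3l and Rpl39l rest on 12 to 473 reads per library.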
